A study of Mus musculus with 8 samples.

Results

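The imprinted Dlk1-Dio3 cluster is the large group of miRNA genes on mouse chromosome 12, and its miRNAs were followed here in kidneys after ureteral obstruction. The members were a list of 47 mature miRNAs of the cluster, matched by name to the array's mouse probes (names carry the mouse prefix mmu, left out below where they recur). The array held 46 of them among 1881 mouse miRNAs. Of the 46 members, 36 were detected on none of the 8 arrays, 3 were detected on all arrays, and 6 were detected on arrays of obstructed kidneys only. Of the 3 members bright enough to be tested, miR-494-3p was higher, miR-487b-3p was lower and miR-370-3p was not called. With dim signals counted too, 18 members, miR-494-3p included, lay higher on every obstructed array than on every sham array (39.1%, beside 16.6% of all mouse miRNAs on the array).

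Male C57BL/6 mice aged 8 weeks had either unilateral ureteral obstruction (UUO), in which the ureter of one kidney is tied so that the kidney becomes inflamed and fibrotic, or a sham operation. Whole kidney tissue was taken 7 days later, with 4 samples in each group (Sham 1, 2, 3 and 8, and UUO 1, 2, 3 and 4), no allele or agent being named for either group. Total RNA was labelled with the dye Cy3 and each sample was hybridized to 1 array of a single-colour Agilent miRNA design. The labels do not say that each sample came from its own mouse, so p-values measure the spread between these samples, which may be technical.

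The miRNAs of this region are made from the maternally inherited chromosome as parts of long noncoding transcripts, while the protein-coding genes Dlk1, Rtl1 and Dio3 are expressed from the paternal one. The cluster is active in the embryo, the placenta and the brain, and most adult tissues express little of it. A first group of its miRNAs, with miR-127 and miR-136, lies antisense to Rtl1 and pairs with the Rtl1 mRNA. A second lies near Rian, and the largest runs from miR-379 to miR-410 near Mirg.

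RefSeq (GRCm38.p6) gave the mature sequence of 44 of the 47 listed members. The 6 below belong to members that were tested or were detected on at least 3 arrays. They are shown because the results turn on them, 5′ to 3′, with the seed (bases 2 to 8, the part that pairs with target mRNAs) in capitals.
mmu-miR-494-3p: uGAAACAUacacgggaaaccuc
mmu-miR-370-3p: gCCUGCUGggguggaaccuggu
mmu-miR-127-3p: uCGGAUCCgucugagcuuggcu
mmu-miR-136-5p: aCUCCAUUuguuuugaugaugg
mmu-miR-379-5p: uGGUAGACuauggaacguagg
mmu-miR-134-5p: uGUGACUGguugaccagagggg
For miR-487b-3p the hairpin of its gene stands in, with the 18 bases that its array probe pairs with in capitals.
Mir487b: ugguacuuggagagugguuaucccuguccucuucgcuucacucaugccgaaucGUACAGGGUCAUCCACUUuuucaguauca
The members did not form a seed family: the 44 sequences held 43 different seeds. The single shared seed, AUGUAAC, belonged to miR-379-3p and miR-411-3p, neither of which was detected on any array. For all 43 members with a probe and a known mature sequence, the brightest probe paired exactly with its miRNA up to the 3′ end. Those of miR-136-5p, miR-136-3p, miR-369-3p and miR-380-3p paired with the whole miRNA.

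The listed miR-299a-5p has no probes under its name, but the array's miR-299b-5p lies wholly inside its sequence. Both are printed to show the overlap, seeds in capitals.
mmu-miR-299a-5p: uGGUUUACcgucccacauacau
mmu-miR-299b-5p: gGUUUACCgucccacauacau
Both probes of miR-299b-5p pair over their whole length with miR-299a-5p too, so the array cannot tell these apart. The signal was 2.56, 2.53, 2.77 and 3.00 on Sham 1, 2, 3 and 8, and 4.82, 7.07, 8.09 and 8.82 on UUO 1 to 4. The groups did not overlap, and neither reached detection by the rule given below. The scanner software's own call had miR-299b-5p detected on 2 UUO arrays.

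Detection on an array required that, for at least 1 probe of a miRNA, over 50% of the spots stood well above background. Signals below are background-subtracted scanner intensities of the miRNA's brightest probe, which can fall below 0. The lowest signal of any detected mouse probe lay between 11.9 and 13.3 on the 8 arrays, and 97.5% of the negative control spots of an array lay below a signal of 4.35 to 5.41. Detected mouse miRNAs made up 20.3 to 22.5% of the array's 1881 on each array, no spot was saturated, and 2.64 to 2.95% of spots were left out as outliers.

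Most of the cluster was silent. The 36 silent members were 78.3% of the 46, beside 74.4% of all 1881 mouse miRNAs (1400) that were detected on no array. Detection on at least 4 of the 8 arrays, the requirement for a test, was reached by 3 members (6.52%), beside 21.7% of all mouse miRNAs. The same 3 members were detected on all 8 arrays, beside 17.9% of all. No member was detected on 4 to 7 arrays, and the nearest below were 4 members detected on 3. By the scanner software's own call, 32 of the 46 members were detected on no array, beside 69.1% of all mouse miRNAs. Members detected per array numbered 4, 3, 3 and 3 on Sham 1, 2, 3 and 8, and 4, 6, 9 and 9 on UUO 1 to 4. UUO 1 thus showed no more members than Sham 1, and the other 3 UUO arrays showed more than any Sham array.

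**Figure D1:**
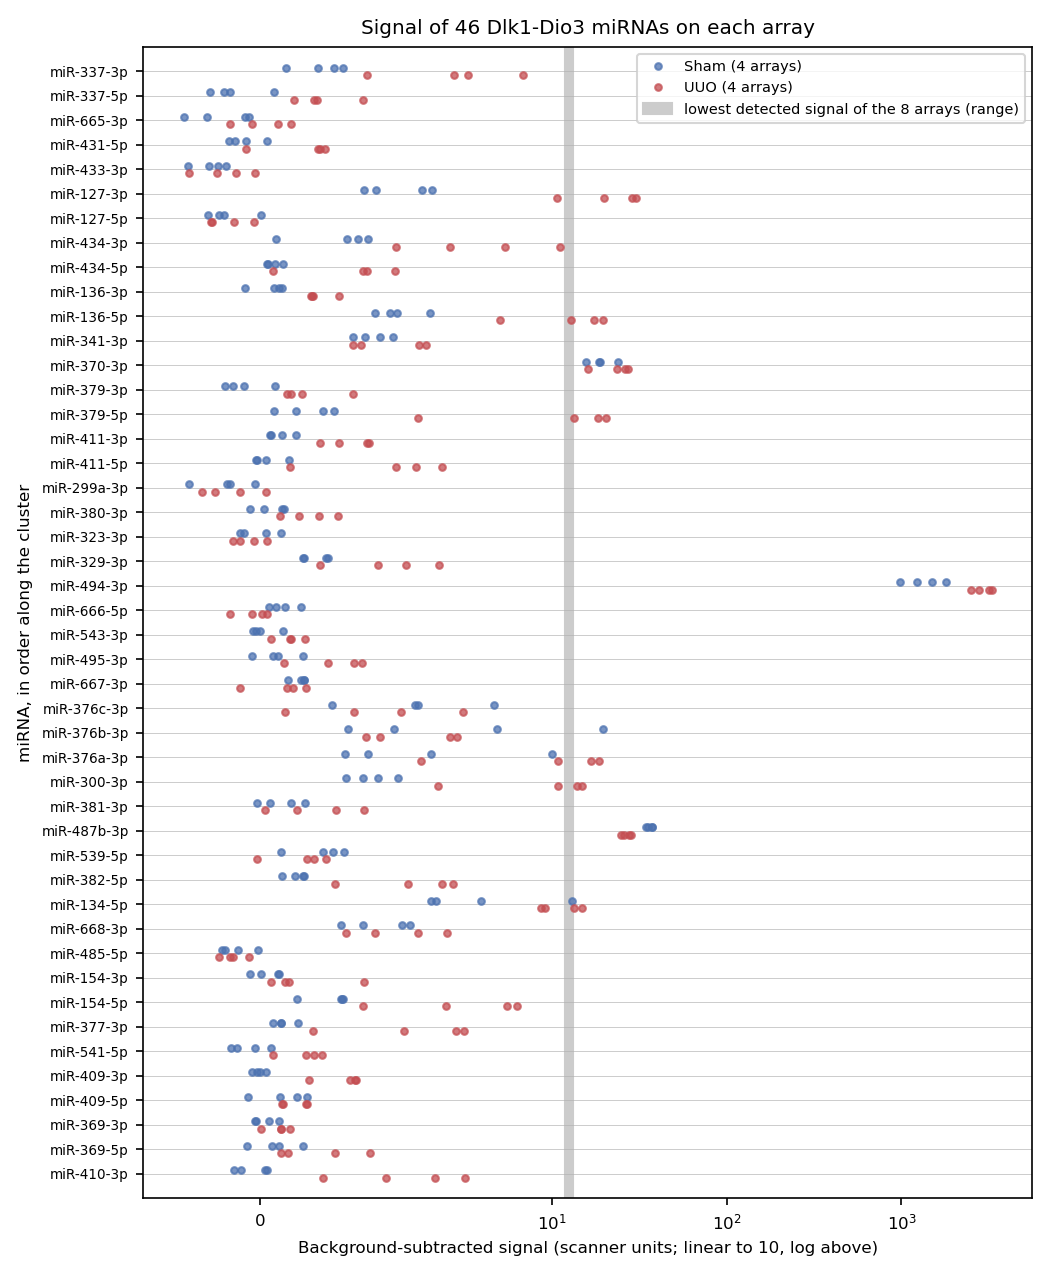
Signal of each of the 46 members on each of the 8 arrays, in order along the cluster. The x axis is the background-subtracted signal in scanner units, linear to 10 and logarithmic above. Blue points are the 4 Sham arrays and red points the 4 UUO arrays, and the grey band is the range of the lowest detected signal, 11.9 to 13.3. Only miR-494-3p, miR-487b-3p and miR-370-3p lie right of the band on every array, and in many rows the red points lie right of the blue ones.

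mmu-miR-494-3p, of the miR-379 to miR-410 group, was detected on every array and rose 1.90-fold in UUO. Its probe is placed at chr12:110953586-110953598 in the build of the files (mm9). The signal was 1801, 1493, 1231 and 974.6 on Sham 1, 2, 3 and 8. It was 3275, 2486, 3183 and 2768 on UUO 1 to 4. The lowest UUO array lay above the highest Sham array. On the scale used for the test, log2 of the signal divided by each array's 75th percentile, Sham kidneys had a level of 1.72 ± 0.39 (SD, n = 4), and UUO kidneys one of 2.65 ± 0.15 (SD, n = 4). The difference was 0.92 ± 0.18 (SE) with a limma adjusted p of 0.00227 over the 408 mouse miRNAs tested. Its other probe also gave higher signals on every UUO array (1390 to 1876) than on every Sham array (508 to 1019).

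mmu-miR-487b-3p, from the same group (probe at chr12:110965597-110965613, mm9), fell in UUO. Its signal was 37.4, 37.4, 34.7 and 35.7 on Sham 1, 2, 3 and 8. On UUO 1 to 4 it was 28.3, 27.8, 25.0 and 25.9. Every UUO array lay below every Sham array. The scaled log2 level averaged −3.48 ± 0.06 over the Sham arrays (SD, n = 4) and −4.12 ± 0.12 over the UUO arrays (SD, n = 4), a 1.55-fold lower level. The log2 difference was −0.64 ± 0.07 (SE) and the limma adjusted p was 7.00e-05. The second probe, one base shorter, ran from 14.3 to 15.01 on the Sham arrays and from 9.04 to 11.5 on the UUO arrays.

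mmu-miR-370-3p, which lies on the Rian side (probe at chr12:110856523-110856536, mm9), did not pass the test. The signal was 24.1, 18.9, 15.7 and 18.7 on Sham 1, 2, 3 and 8, and 23.5, 16.2, 26.4 and 27.3 on UUO 1 to 4. The groups overlapped. The log2 difference was 0.06 ± 0.17 (SE, limma adjusted p = 0.753), and its sign changed under 6 alternatives. Scaling to the array's labelling control features gave 0.47 (limma adjusted p = 0.0316).

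Of the 3 members tested, 1 was called higher and 1 lower. Over all 408 tested miRNAs 39.7% were called higher and 27.7% lower, 67.4% in all, and with 3 tested members nothing is read from their share of calls. The direction and call of miR-494-3p and miR-487b-3p held under all 25 processing settings run, with limma adjusted p from 0.000107 to 0.0381 and from 3.59e-05 to 0.00515. The Sham arrays all lay in row 1 of the slide and the UUO arrays all in row 2, so slide row and group cannot be told apart for any value given here.

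**Figure D2:**
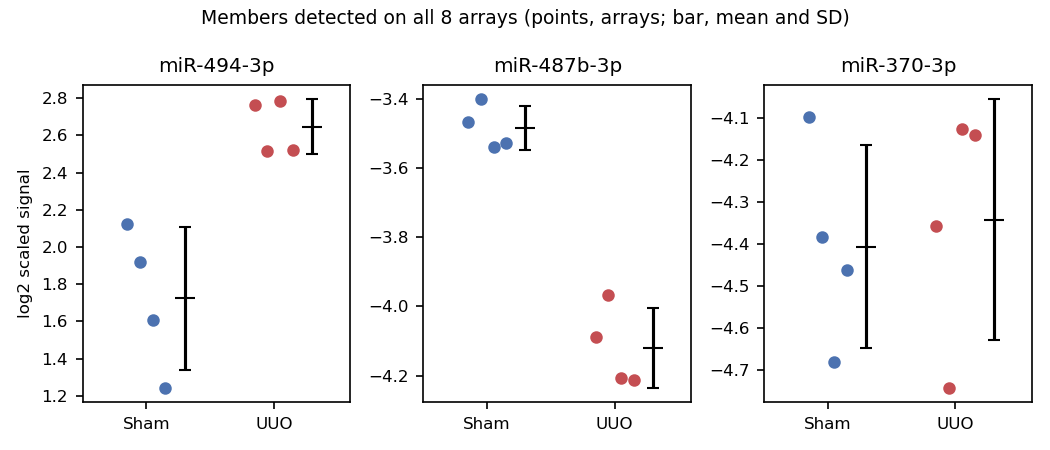
Level of the 3 members detected on all 8 arrays, as log2 of the signal divided by the array's 75th percentile. Points are single arrays and the bars show the mean and SD of 4 arrays. The groups are apart for miR-494-3p (higher in UUO) and miR-487b-3p (lower in UUO) and overlap for miR-370-3p. Each panel has its own y axis, which does not start at 0.

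Another 6 members were detected on UUO arrays and on no Sham array, and 1 on a Sham array only. By the scanner software's own call, miR-134-5p and miR-376a-3p, which are among the 6, were each also detected on 1 Sham array. miR-127-3p, of the Rtl1 antisense group (probe at chr12:110831103-110831119, mm9), had signals of 5.89, 3.96, 3.58 and 5.57 on Sham 1, 2, 3 and 8. On UUO 1 to 4 it gave 10.8, 19.8, 30.6 and 28.7, and it was detected on UUO 2, 3 and 4. The groups did not overlap. Because it was not well above background on any Sham array, the change is a bound, at least 1.42-fold higher in UUO. The bound compares the mean scaled log2 signal of the probe over the 4 UUO arrays, not raised to the floor, with the mean, over the Sham arrays, of the lowest detected signal or of the probe's own signal where that is higher. None of the other members detected in 1 group only had a mean above that reference, so no fold is given for them.

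miR-136-5p, also of the Rtl1 antisense group (probe at chr12:110833542-110833562, mm9), gave 5.83, 4.71, 3.95 and 4.47 on Sham 1, 2, 3 and 8, and 8.24, 12.8, 17.4 and 19.7 on UUO 1 to 4. It was detected on UUO 2, 3 and 4. The first miRNA of the largest group, miR-379-5p (chr12:110947281-110947295, mm9), gave 2.53, 1.23, 0.476 and 2.15 on the Sham arrays in the same order and 5.43, 13.4, 20.6 and 18.4 on UUO 1 to 4. It too was detected on UUO 2, 3 and 4. For both miRNAs UUO 1 was the lowest UUO array and still lay above every Sham array.

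mmu-miR-300-3p gave 4.05, 2.97, 3.52 and 4.74 on Sham 1, 2, 3 and 8, and 6.11, 10.9, 14.96 and 13.9 on UUO 1 to 4. It was detected on UUO 3 and 4. mmu-miR-376a-3p was detected on the same arrays. Its signals were 10.1, 3.71, 2.90 and 5.87 in Sham, in that order, and 5.52, 10.9, 18.7 and 16.8 on UUO 1 to 4. Sham 1 was the high Sham array for miR-376a-3p and the groups overlapped.

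miR-134-5p, known for its part in the dendritic spines of neurons, did not share the order of the UUO arrays (chr12:110972367-110972376, mm9). The signals were 13.0, 6.04, 5.86 and 7.56 on Sham 1, 2, 3 and 8, and 14.9, 9.79, 9.65 and 13.4 on UUO 1 to 4. It was detected on UUO 1 and 4 through this probe and on UUO 3 through another of its 4 probes. The groups overlapped through Sham 1. mmu-miR-376b-3p ran the other way: 19.7 on Sham 1, where alone it was detected, 4.58, 3.03 and 8.14 on Sham 2, 3 and 8, and 6.53, 4.12, 6.77 and 3.65 on UUO 1 to 4. Its groups overlapped and its level rests on 1 Sham array. Sham 1 was the highest Sham array for miR-134-5p, miR-376a-3p and miR-376b-3p alike.

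No silent member reached detection on any array, and many had higher signals in UUO. They were miR-127-5p, miR-136-3p, miR-154-5p, miR-154-3p, miR-299a-3p, miR-323-3p, miR-329-3p, miR-337-3p, miR-337-5p, miR-341-3p, miR-369-3p, miR-369-5p, miR-376c-3p, miR-377-3p, miR-379-3p, miR-380-3p, miR-381-3p, miR-382-5p, miR-409-3p, miR-409-5p, miR-410-3p, miR-411-5p, miR-411-3p, miR-431-5p, miR-433-3p, miR-434-3p, miR-434-5p, miR-485-5p, miR-495-3p, miR-539-5p, miR-541-5p, miR-543-3p, miR-665-3p, miR-666-5p, miR-667-3p and miR-668-3p. Their mean signal ran from −1.71 to 5.31 in Sham (median 0.39) and from −1.23 to 7.68 in UUO (median 1.96). The UUO means of miR-434-3p, miR-154-5p and miR-337-3p lay above the range of nearly all negative control spots. On UUO 1 alone, miR-154-5p (3.52) and miR-337-3p (3.67) lay below that array's limit for 97.5% of these spots, 4.53. The UUO means of miR-382-5p (5.13), miR-377-3p (5.11), miR-410-3p (4.88) and miR-668-3p (4.68) also lay above the UUO arrays' limits, 4.35 to 4.53. Each of these miRNAs lay below the limit on at least 1 UUO array. The limits are of single spots, whereas a member's signal averages the spots of its probe. The scanner software called miR-434-3p, miR-154-5p and miR-337-3p each detected on 1 UUO array, and miR-376c-3p on 1 Sham array. Over all 1400 silent mouse miRNAs the medians were −0.04 and −0.05.

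Groups that did not overlap were counted over all members, whether detected or not. UUO lay above Sham for 18 of the 46 members (39.1%), beside 16.6% of all 1881 mouse miRNAs. UUO lay below Sham for 2 members, miR-487b-3p and miR-666-5p (4.35%), beside 8.35% of all. After division by each array's 75th percentile the counts were 16 above, beside 13.6% of all, and 2 below, beside 10.9%. Among the 36 silent members 13 lay above (36.1%), beside 7.21% of all silent miRNAs, and 1 below, beside 4.29%. Of the 43 untested members, 35 had a higher mean signal in UUO (81.4%), beside 51.5% of all untested miRNAs.

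Values on every array are given for 3 silent members of the miR-379 to miR-410 group. miR-410-3p, at its far end, gave −0.659, −0.895, 0.231 and 0.171 on Sham 1, 2, 3 and 8, and 2.17, 4.33, 7.03 and 6.01 on UUO 1 to 4. miR-377-3p gave 0.435, 0.732, 0.724 and 1.32 on the Sham arrays and 1.80, 4.93, 6.99 and 6.72 on UUO 1 to 4. miR-382-5p gave 1.21, 1.50, 1.47 and 0.738 in Sham and 2.57, 5.09, 6.24 and 6.63 in UUO. In each case no UUO array reached detection, every UUO array lay above every Sham array, and UUO 1 was the lowest of the UUO arrays.

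Other silent members showed the same order at higher or lower signals. miR-154-5p went from a Sham mean signal of 2.43 ± 0.784 (SD, n = 4) to a UUO mean of 6.80 ± 2.43 (SD, n = 4), and miR-409-3p from −0.0397 ± 0.202 (SD, n = 4) to 2.82 ± 0.771 (SD, n = 4). In the Rtl1 antisense group, miR-337-3p went from 2.07 ± 0.855 (SD, n = 4) to 6.62 ± 2.22 (SD, n = 4) and miR-434-3p from 2.65 ± 1.43 (SD, n = 4) to 7.68 ± 2.77 (SD, n = 4). Each of these 4 had groups that did not overlap. Other members stayed at the level of the negative controls in both groups: miR-485-5p had a mean signal of −0.835 ± 0.566 (SD, n = 4) with sham surgery and −0.930 ± 0.414 (SD, n = 4) after obstruction, and miR-433-3p −1.71 ± 0.562 (SD, n = 4) and −1.23 ± 0.964 (SD, n = 4).

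A fit that could take in the dim members was run over all 1881 miRNAs after the data had been seen, on intensities corrected with normexp (offset 50) and quantile normalized, with no detection filter. It called 17 members higher (37.0%), beside 10.8% of all miRNAs, and 1 lower, miR-487b-3p, beside 11.2%. In either direction it called 22% of all miRNAs. All 17 had groups that did not overlap, and 12 of them were silent. On this compressed log2 scale miR-127-3p differed by 0.31 ± 0.06 (SE, limma adjusted p = 0.0110), miR-379-5p by 0.26 ± 0.05 (SE, limma adjusted p = 0.0110) and miR-136-5p by 0.18 ± 0.04 (SE, limma adjusted p = 0.0140). miR-300-3p differed by 0.15 ± 0.03 (SE, limma adjusted p = 0.0151) and miR-410-3p by 0.12 ± 0.02 (SE, limma adjusted p = 0.00648). For miR-376a-3p the difference was 0.14 ± 0.06 (SE, limma adjusted p = 0.136), for miR-134-5p 0.06 ± 0.04 (SE, limma adjusted p = 0.344) and for miR-376b-3p −0.08 ± 0.07 (SE, limma adjusted p = 0.524). These 3 were not called. The offset of 50 is larger than the signal of every member but miR-494-3p, so these log2 differences understate the ratio of the signals.

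That count changed with the arrays used. Leaving out Sham 1, 2, 3 or 8 left 15, 11, 12 or 12 members called higher. Leaving out UUO 2, UUO 3 or UUO 4 each left 10, and leaving out UUO 1 gave 23. The share of all miRNAs called was not counted for these omissions, so the members' counts cannot be set beside it. A fit on unlogged signals, also without a filter, called 17 higher, beside 15.2% of all miRNAs, and 1 lower, beside 6.33% (21.5% of all in either direction). Of these 17, 16 were also called in the normexp fit. With signals raised to the detection floor before log2 and no filter, limma called only miR-494-3p and miR-487b-3p among the members, since most others then lie at the floor on all arrays.

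The UUO arrays differed among themselves over these members. Of the 17 untested members with UUO above Sham, UUO 1 was the lowest UUO array in 16, whereas it was the lowest for 11.2% of all mouse miRNAs that lay above without overlap. UUO 3 was the highest for 11 of the 17, UUO 4 for 5 and UUO 2 for 1. In 16 of the 17, all of the miRNA's probes had a higher mean in UUO. Over the 36 silent members, the median signal was 0.43 to 0.51 on the Sham arrays and 1.02, 2.05, 3.14 and 2.28 on UUO 1 to 4. Without UUO 1, groups did not overlap for 25 members (UUO above), beside 17.6% of all miRNAs. Leaving out any other array gave 18 to 20, beside 17.6 to 20.3% of all miRNAs.

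**Figure D3:**
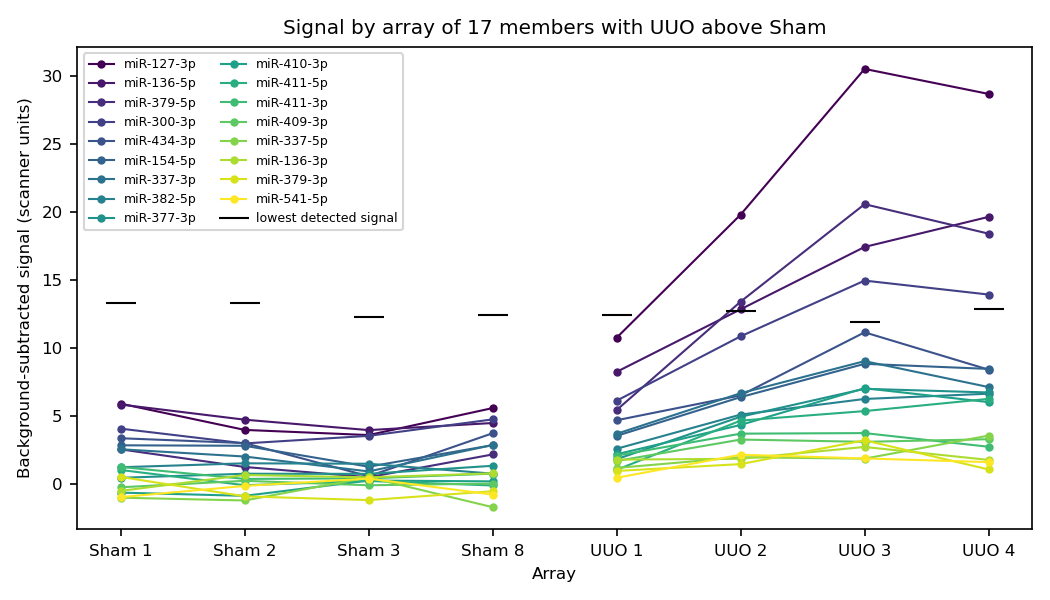
Background-subtracted signal, in scanner units, of the 17 untested members whose UUO arrays all lay above their Sham arrays. Each line joins the values of 1 miRNA within a group, arrays have no order, and the black dashes mark the lowest detected signal of each array (11.9 to 13.3). For 16 of the 17, UUO 1 is the lowest UUO array, and only miR-127-3p, miR-379-5p, miR-136-5p and miR-300-3p cross the dashes.

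By position, the Rtl1 antisense group had 11 members on the array, of which 2 were detected on at least 1 array and 6 lay above Sham without overlap, a pattern that 16.6% of all mouse miRNAs showed. The miR-379 to miR-410 group had 33, with 7 detected, 12 above and 2 below, the last beside 8.35% of all mouse miRNAs. The Rian side had 2, with 1 detected and 0 above. Members above Sham without overlap lay at both ends of the cluster. Among the 9 hairpins with both arms on the array, both arms lay above Sham in 4, exactly 1 arm in 4 and neither in 1. The same count over all hairpins of the array is not given, so nothing is read from these numbers.

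RefSeq places further array miRNAs among the members, and their counts are given beside those of the members, with no test of the difference. Of 57 such miRNAs, 1 was detected on any array, and UUO lay above Sham without overlap for 2 (3.51%, beside 16.6% of all mouse miRNAs), miR-299b-5p and miR-541-3p. UUO lay below Sham for 3 (5.26%, beside 8.35% of all), miR-1188-3p, miR-882 and miR-3070-2-3p. The normexp fit called 1 of the 57 higher and 4 lower, beside 10.8% and 11.2% of all. The detected one, miR-3070-2-3p, was detected on all 4 Sham arrays and on no UUO array. Its signal was 15.4, 38.4, 33.1 and 31.4 on Sham 1, 2, 3 and 8, and 7.44, 8.13, 9.67 and 11.2 on UUO 1 to 4, at least 2.57-fold lower in UUO. It passed the filter of the fit only through the Sham arrays, so no p is given. RefSeq places it 2.86 kb from the first member, inside the cluster. The array files, whose headers name mm9, list its probe at chr12:109588654-109588669. The members' probes are listed at chr12:110824584-110981994 (mm9). Only if read as mm9 does the listed position of miR-3070-2-3p fall outside that span. Its build is uncertain, so no conflict with the RefSeq placement is read from it.

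**Figure D4:**
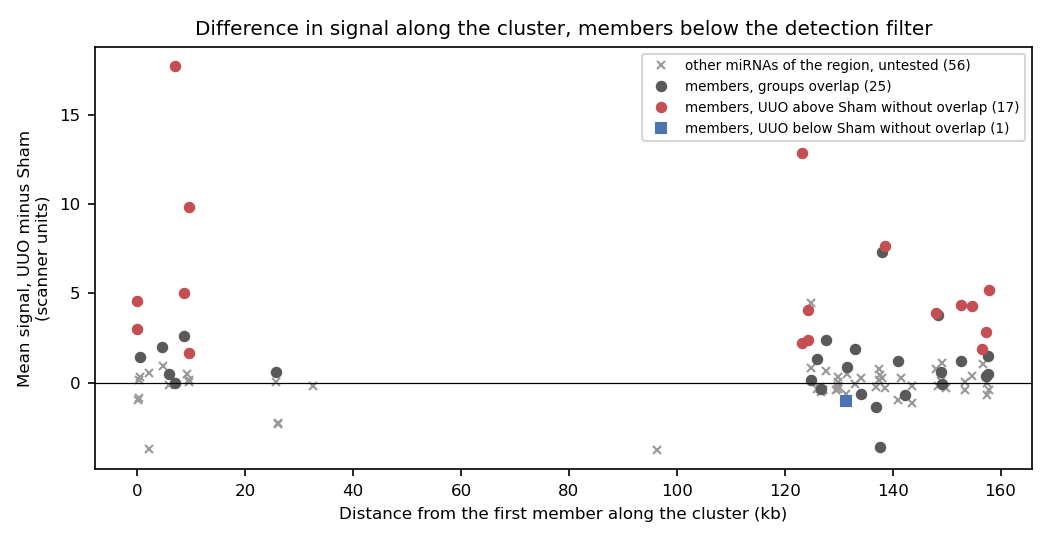
Mean signal in UUO minus mean signal in Sham, in scanner units, against the distance in kb from the first member, for the 43 members below the detection requirement and for 56 untested other miRNAs of the region. Red circles are the 17 members with UUO above Sham without overlap, the blue square is the 1 member below, dark circles are the 25 members whose groups overlap, and grey crosses are the other miRNAs. Red circles occur at both ends of the cluster, and most grey crosses lie near 0.

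Probe composition is given as a description. The median GC content of the brightest probe was 50% for the 17 untested members above Sham and 51.3% for the other 26 untested members, and the median probe length was 18 bases in both. Over all 46 members probe GC ran from 23.8 to 72.7%.

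miRNAs known from particular cell types gave the following summed signals beside these changes. The 5 kidney tubule miRNAs, detected on all 8 arrays, summed to 16128 to 17969 in Sham and 11812 to 13274 in UUO, with 3 called lower. The 5 fibroblast miRNAs were all called higher, from 1542 to 1726 in Sham to 6720, 6003, 6067 and 7601 on UUO 1 to 4. The 5 leukocyte miRNAs were all called higher too, from 664 to 741 in Sham to 3783, 3376, 3479 and 3328 on UUO 1 to 4. UUO 1 was not the lowest UUO array in either sum. Of the 6 neural miRNAs 4 were detected on all arrays, while the neuronal miR-124-3p and miR-137-3p were detected on none, and the sum was 148 to 208 in Sham and 162 to 172 in UUO with 0 called higher and 1 lower. The 6 striated muscle miRNAs summed to 101, 64.0, 74.8 and 105 on Sham 1, 2, 3 and 8 and to 79.1, 65.2, 116 and 110 on UUO 1 to 4, with 0 called in either direction, and 3 of them, miR-206-3p among these, were detected on no array. The 2 endothelial miRNAs summed to 5043 to 5456 in Sham and 5136 to 5717 in UUO, with 0 called higher and 1 lower. In whole tissue, more or fewer cells of a type and more or less miRNA per cell cannot be told apart, and the part of these cell types in the members' changes was not tested.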

How the data were processed

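miRNA was measured in 8 kidney samples. Per the file headers, spot intensities were extracted by the authors with Agilent Feature Extraction 10.7.3.1, background-subtracted and not normalized between arrays, with probe positions on mm9. The deposited series table holds ratios per miRNA. The sources used here do not state how its factor per array was set.

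Outlier spots were left out, spots of a probe were averaged, and signals were scaled to the array's 75th percentile (over 623 probes with detection on every array), raised to a floor (log2 −4.89) and logged. A miRNA was its brightest probe. The 408 miRNAs detected on at least 4 arrays were tested with limma 3.58.1 in R 4.3.3, group as the only term, 2-sided, Benjamini-Hochberg, called at an adjusted p under 0.05. The fit was tested on simulated data. The number of arrays limits the precision. Every member detected on at least 1 array was named with its values, and silent members were named as a group. The values of silent members given singly, miR-299b-5p, and other miRNAs of the region below detection were chosen after the values were seen. The members and lists, with tubule, fibroblast, leukocyte, neural, muscle and endothelial miRNAs, were chosen with earlier results of these data known. Alternatives changed the scaling, background, summary, floor, filter, blocks and samples.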

Additional observations from a re-analysis of the deposited data

Results flagged for a closer look

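Sham 1 showed 4 detected members, against 3 on each of the other Sham arrays, the extra one being miR-376b-3p. The gap fills the group's whole range, which is 1 member. Any count that differs from 3 equal ones fills the range in this way, so no chance rate is given.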

How the results depend on the processing

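The calls of miR-494-3p and miR-487b-3p kept their direction under all settings run, with log2 differences from 0.61 to 1.33 and from −0.98 to −0.23. Without each array in turn they ran from 0.77 to 1.06 and from −0.67 to −0.60. miR-370-3p, not called at 0.06, was −0.14 with the software's summed signal, −0.10 in the deposited ratios and −0.022 with the replicate block, ran from −0.015 to 0.21 when arrays were left out, and was 0.47 and called with scaling to the labelling controls. In the main analysis 1 of the 3 tested members was called higher, and leaving out arrays gave 1 throughout. Scaling to the labelling controls called 2 of the 3 higher, beside 265 of all 408 miRNAs. The software's own detection call let 7 members into the test for the summed signal and the ratios. There 3 and 4 of the 7 were called higher, beside 109 and 118 of all 499 miRNAs. Of those newly let in, miR-127-3p and miR-136-5p were detected by that call on UUO arrays only. miR-134-5p and miR-376a-3p were each detected by it on 1 Sham array. These members entered mainly through the group where they are high, so nothing is read from the added calls. Without a filter, 17 of 46 members were called higher in the normexp and unlogged fits, beside 204 and 286 of all 1881. The floored log2 fit without a filter called 1 of 46 higher, beside 123 of 1881. Of all miRNAs, 162 were called higher and 113 lower. Scaling to the labelling controls gave 265 and 47, the summed signal gave 217 lower, the ratios 207 lower, normexp without a filter 210 lower, and unlogged signals without a filter 286 higher. Without single arrays the counts ran from 139 to 171 and from 96 to 114. The median log2 difference of all tested miRNAs was 0.06, and 0.45 with the labelling controls, 0.26 unscaled, −0.23 with the summed signal and −0.20 in the ratios. Detection on at least 4 arrays, or on all 8, left 3 members in place of 10, and leaving out arrays left 9 to 10. Members above Sham without overlap, 18 in all, ran from 18 to 25 without single arrays, beside 17.6 to 20.3% of all miRNAs. After scaling they were 16, beside 13.6% of all. Those below stayed at 2, beside 9.2 to 10.5% of all without single arrays and 10.9% after scaling.

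The groups share the replicate numbers 1, 2 and 3, but same-numbered samples did not deviate together (r = −0.00, 0.12 and −0.30). Differently numbered samples gave r from −0.45 to 0.38. These few values give no sign that the numbers pair the samples, and they cannot exclude it. With the replicate block, which leaves 2 residual degrees of freedom, 226 miRNAs were called (275 without it), and the members' calls stayed. In the normexp fit without a filter the replicate block left 1 member called higher in place of 17, and leaving out single arrays gave 10 to 23. The share of all miRNAs called is not given for these fits, so the members' counts cannot be set beside it. Dim signals limit what can be said of the 36 silent members.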
